A study of Drosophila melanogaster with 6 samples.

Results

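The GPI transamidase subunit genes PIG-K, PIG-S, PIG-T and PIG-U were followed in Drosophila SL2 cells depleted of Iswi, an ATPase that moves nucleosomes as the motor of several chromatin complexes. Members were all probe sets that the platform annotation assigns to exactly 1 of these 4 symbols, which gave 5 of the 18952 probe sets in the value table, with 2 probe sets for PIG-S and 1 for each of the others. The 4 genes are among 11981 that had a probe set of 1 symbol. The genes were chosen by their known role and with the log2 difference between ISWI and GST arrays already seen, so that difference is described here for the 4 genes and not tested.

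SL2 cells are an established line from late Drosophila embryos with features of haemocytes, the insect blood cells. For RNA interference, 3 cultures received double-stranded RNA (dsRNA) directed at Iswi and 3 received dsRNA directed at GST, the control. In both groups the dose was 10 micrograms, serum was withheld for the first 1 hour, and cells were collected 7 days later without passaging. Neither group carries another genetic change in the labels, and untreated cells were not analysed here. Each culture, described in the series as a biological replicate, gave 1 single-colour array. Values are the deposited log2 values per probe set.

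Glycosylphosphatidylinositol (GPI) is a lipid-linked glycan that holds many proteins on the outer face of the cell membrane. It is assembled in the endoplasmic reticulum (ER) by a series of PIG enzymes. The transamidase then cuts a carboxy-terminal signal off the precursor protein and joins the new end to the finished GPI. The complex is best known from human and yeast cells, where it has 5 kinds of subunit. PIG-K is its cysteine protease-like catalytic subunit. PIG-T is bound to PIG-K and holds the complex together, PIG-U is a membrane-spanning subunit, PIG-S has a large domain in the ER lumen, and GAA1 also takes part in the transfer. The roles named below for PIG genes are those of their human relatives.

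Between 7364 and 7416 probe sets lay above a log2 value of 4 on ISWI arrays and between 7331 and 7334 on GST arrays. The level of 4 was chosen as a floor for dim signals. The Iswi probe set averaged 7.52 ± 0.31 on ISWI arrays and 10.51 ± 0.03 on GST arrays (SD, n = 3 each), which leaves 12.6% of the control level. ISWI replicate 2 stood apart in the 3' minus 5' difference of the actin control probe sets, a sign of RNA quality, with 1.06 on this array, 0.55 and 0.48 on the other ISWI arrays, and 0.40 to 0.55 on GST arrays. Omitting this array gave differences between ISWI and GST of 0.17 for PIG-K, 0.58 for PIG-T, 0.42 for PIG-U and 0.23 and -0.45 for the PIG-S probe sets. For the eIF-4a control the 3' minus 5' difference was 1.91, 2.26 and 1.86 on ISWI arrays and 1.85, 1.75 and 1.69 on GST arrays. It was thus higher on every ISWI array, while for the GAPDH control the groups overlapped. The part of RNA quality in the results below was not tested. All 10 haemocyte markers with a probe set passed the floor, with a summed level of 16.58 to 16.79 on ISWI arrays and 16.66 to 16.74 on GST arrays (log2). Single markers moved in both directions under this sum, which the brightest genes dominate. In limma's test (adjusted p under 0.05) 3 were higher (eater by 0.75, drpr by 0.51 and crq by 0.22) and 3 lower (NimC1 at -0.86, Pxn at -0.29 and srp at -0.28). This is 60.0% of the 10 markers, against 41.1% of all tested genes, 23.4% higher and 17.6% lower, and nothing is read from so small a count. All 6 fat body markers with a probe set, among them Fbp1, Lsp2 and Yp1, were at or below 4 on every array. Of 3 neuronal markers nSyb was at or below 4 on every array, while elav and brp passed the floor. The summed level of all 3 was 7.45 to 7.71 on ISWI arrays and 7.75 to 8.07 on GST arrays. The gene brp (-0.29) was lower (limma adjusted p = 0.0454) and elav (-0.39) did not pass (limma adjusted p = 0.0945). The part of these marker levels in the results below was not tested.

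PIG-K, PIG-T and PIG-U were higher in Iswi-depleted cells, by 1.12-fold to 1.51-fold, and PIG-S gave opposite differences on its 2 probe sets. All 5 probe sets lay above 4 on all 6 arrays, and the groups did not overlap on any of them. Of all 7390 tested probe sets, 54.1% had groups that did not overlap, 29.4% with the ISWI arrays above and 24.7% with them below. Nothing is read from the members' count, since the same contrast was in view when they were chosen. In bulk RNA, a change in the mix of cells and a change in RNA per cell cannot be told apart.

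**Figure D1:**
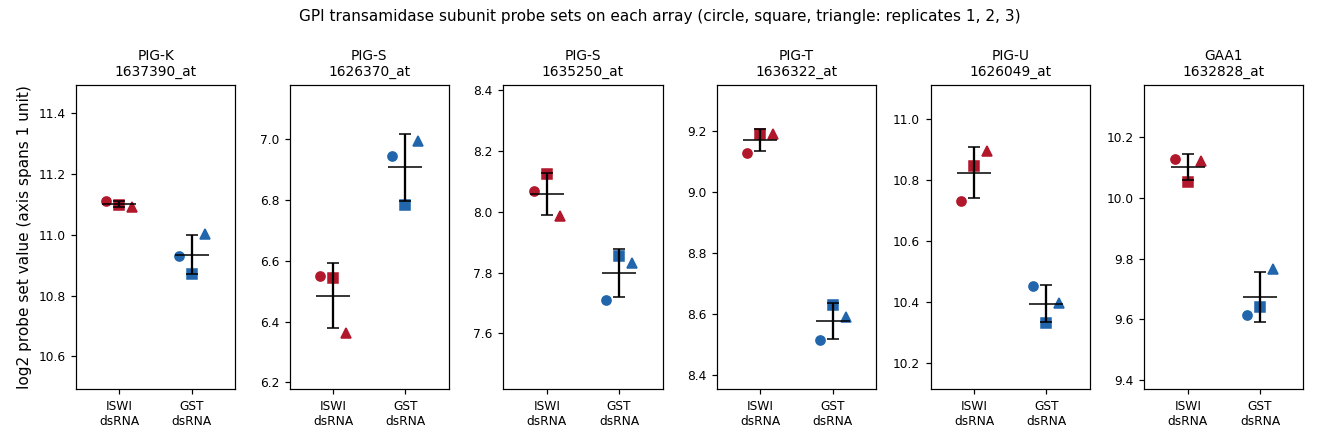
Log2 value of each transamidase probe set, and of GAA1, on the 3 ISWI arrays (red, left) and the 3 GST arrays (blue, right), with the group mean and SD in black. Each vertical axis spans 1 log2 unit, so distances can be compared between panels while the levels themselves cannot. ISWI arrays lie above GST arrays in every panel except that of PIG-S probe set 1626370_at, where they lie below.

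The catalytic subunit gene PIG-K had the smallest difference of the 5 probe sets. Its values were 11.11, 11.10 and 11.09 on ISWI arrays, against 10.93, 10.87 and 11.00 on GST arrays. The ISWI arrays were nearly identical, and the lowest of them stood only 0.09 above the highest GST array. The difference of means was 0.17 on the log2 scale with a limma standard error of 0.05, which is 1.12-fold. Of all tested probe sets, 29.8% had a higher difference.

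PIG-T, whose product holds the catalytic subunit in the complex, differed most. It measured 9.13, 9.19 and 9.19 on ISWI arrays and 8.51, 8.63 and 8.59 on GST arrays. A gap of 0.50 separated the groups, while the SD was 0.04 among ISWI arrays and 0.06 among GST arrays. The difference was 0.59 (standard error 0.06), or 1.51-fold, and 7.02% of all tested probe sets had a higher one.

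PIG-U, the membrane-spanning subunit, lay between these genes in its difference. Its values were 10.73, 10.85 and 10.89 on ISWI arrays, against 10.45, 10.33 and 10.40 on GST arrays. ISWI replicate 1 was the lowest of its group and still 0.28 above the highest GST array. The difference was 0.43 (standard error 0.06), or 1.35-fold, and 10.9% of all tested probe sets had a higher one.

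PIG-S did not give 1 answer. Probe set 1635250_at measured 8.07, 8.12 and 7.99 on ISWI arrays and 7.71, 7.85 and 7.83 on GST arrays. All ISWI arrays were above all GST arrays, with a difference of 0.26 (standard error 0.08), or 1.20-fold. Probe set 1626370_at measured 6.55, 6.54 and 6.36 on ISWI arrays and 6.95, 6.78 and 6.99 on GST arrays. Here all ISWI arrays were below all GST arrays, and the difference was -0.42 (standard error 0.10), so that the ISWI group held 74.6% of the GST level. Of all tested probe sets, 20.6% had a higher difference than the first and 10.2% a lower difference than the second. The SDs were 0.07 and 0.11 among ISWI arrays and 0.08 and 0.11 among GST arrays, so both differences exceed the spread between replicates while pointing opposite ways.

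Opposite probe sets of this kind were uncommon on these arrays. Among 332 genes with over 1 tested probe set, 14 (4.22%) had a probe set with all ISWI arrays above all GST arrays and another with all of them below. The gene record of PIG-S in genome Release 6 contains the whole record of a second gene, sud1, and both records end at the same base. The gene table gives CG31120 as an older name of both genes. No probe set on the array is named for sud1, and the sources used here do not say which transcript each PIG-S probe set matches. A direction for PIG-S therefore depends on the probe set chosen, and the part of sud1 RNA in either value was not tested.

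**Figure D2:**
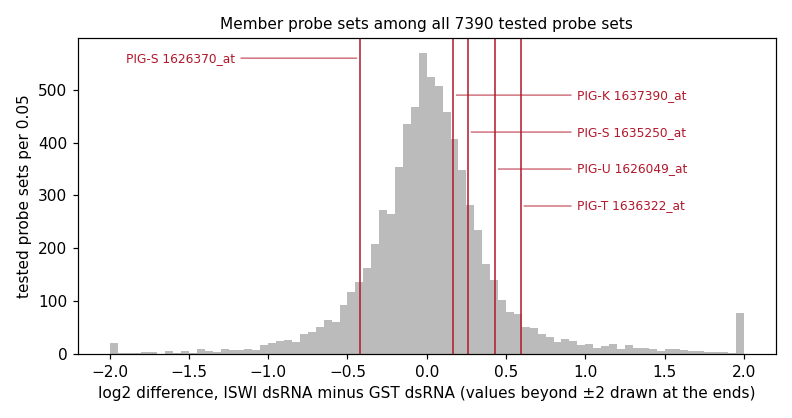
Number of tested probe sets by log2 difference, ISWI dsRNA minus GST dsRNA, in steps of 0.05, with red lines at the 5 transamidase probe sets. PIG-T at 0.59 and PIG-U at 0.43 lie in the upper flank, PIG-S at 0.26 and PIG-K at 0.17 near the body of the distribution, and the other PIG-S probe set at -0.42 in the lower flank.

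Across the 5 probe sets the median difference was 0.26, against 0.01 for all tested probe sets. That median is the value of the PIG-S probe set with ISWI arrays above GST arrays. The median absolute difference of the members was 0.42, and that of all tested probe sets was 0.20. Here the members' value is the size of the difference on the opposite PIG-S probe set. Nothing is read from either median, since PIG-S had no single direction and the members were chosen with this contrast seen. The differences of PIG-T and PIG-U were 0.16 apart, PIG-U and the higher PIG-S probe set 0.17, and that probe set and PIG-K 0.09. The standard errors of these single differences were 0.05 to 0.08. They are not errors of the gaps, which would be larger and were not computed. No tests between the members were run. Levels are not compared between probe sets, because each has its own response.

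Of the 5 known subunits of the complex, GAA1 was not among the chosen genes and was tested with the rest of the array. Like the gene lists, it was picked for naming with earlier results of these data known, so its p-value is not independent support for the members. It measured 10.13, 10.05 and 10.12 on ISWI arrays, against 9.61, 9.64 and 9.77 on GST arrays. The groups did not overlap, and the means were 10.10 ± 0.04 on ISWI arrays and 9.67 ± 0.08 on GST arrays (SD, n = 3 each). GAA1 rose by 0.43 (standard error 0.06), or 1.34-fold, with a limma adjusted p = 0.0015. Of all 6011 tested genes 41.1% passed this threshold of 0.05, 23.4% higher and 17.6% lower (of probe sets 40.2%, 22.1% higher and 18.1% lower), so a pass by itself does not set a gene apart. The balance of directions depends on scaling, with 1476 probe sets higher and 1510 lower when arrays were centred, and 1525 higher and 1512 lower when quantile normalization was applied again.

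Genes that build the GPI glycan, the step before the transamidase, were followed as a list. Of 22 genes listed 14 had a probe set of 1 symbol and 13 were tested, of which 8 rose and 0 fell, with a median difference of 0.43 against 0.03 for all tested genes. The share that passed was 61.5% against 41.1% of all tested genes. PIG-Wb was at or below 4 on every array and was not tested. The list was drawn up with earlier results of these data known, and its count carries no test of its own, so nothing is read from its count or direction. The p-values of its genes given below carry the same limit. Omitting GST replicate 1 left 5 higher genes, as did omitting GST replicate 3 or the floor on dim signals. When quantile normalization was applied again it was 7 higher and 1 lower (Dpm1).

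The first step, the transfer of N-acetylglucosamine to phosphatidylinositol, is made by a complex of which 4 subunit genes were tested. PIG-Q measured 8.17, 8.45 and 8.23 on ISWI arrays and 7.55, 7.44 and 7.36 on GST arrays. It rose by 0.83 (standard error 0.10, limma adjusted p = 0.000517), more than any other tested gene of this list, and its groups were far apart. PIG-H rose by 0.60 (limma adjusted p = 0.00139). The catalytic subunit gene PIG-A rose by 0.43 (limma adjusted p = 0.0264), a call lost without any single GST array, without ISWI replicate 2, without ISWI replicate 3 and without the floor. PIG-C, at 5.09 ± 0.15 on ISWI arrays and 4.79 ± 0.12 on GST arrays (SD, n = 3 each), did not pass (limma adjusted p = 0.108).

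Later steps gave both passing and non-passing genes. PIG-L, which encodes the deacetylase of the second step, rose by 0.24 (limma adjusted p = 0.0456). This call was lost when arrays were centred on their medians or quantile-normalized again, without the floor, without the variance trend, and without each array other than ISWI replicate 1. PIG-Wa, for the inositol acyltransferase, rose by 0.51 (limma adjusted p = 0.0172), a call lost without GST replicate 1, without GST replicate 3 and without the floor. Among mannose transfer genes, PIG-B rose by 0.75 (limma adjusted p = 7.11e-05), with 10.98, 10.90 and 11.01 on ISWI arrays against 10.28, 10.20 and 10.15 on GST arrays, while PIG-X (0.18) and the dolichol-phosphate mannose synthase gene Dpm1 (-0.12) did not pass. Of the ethanolamine phosphate transfer genes, PIG-G rose by 0.66 (limma adjusted p = 0.000323) and PIG-N by 0.52 (limma adjusted p = 0.00631), and PIG-O (0.11) and PIG-F (0.07) did not pass.

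**Figure D3:**
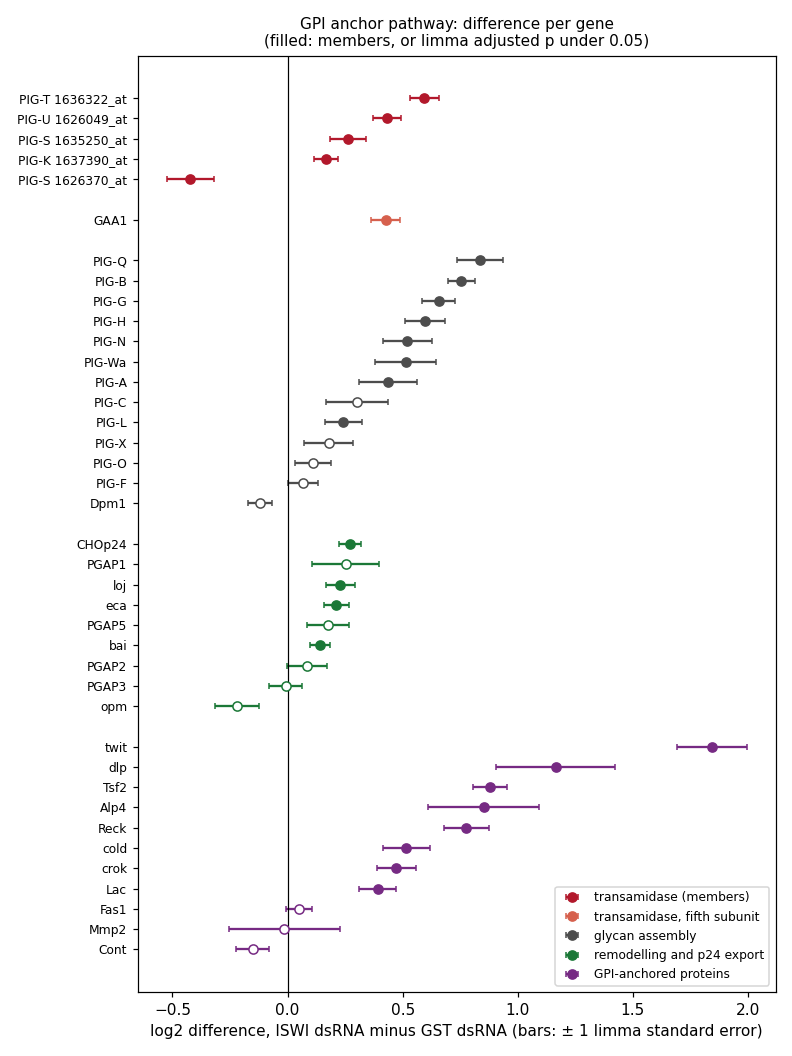
Log2 difference, ISWI dsRNA minus GST dsRNA, with 1 limma standard error on each side, for the transamidase probe sets (red), GAA1 (orange), and the tested genes of glycan assembly (grey), remodelling and export (green) and GPI-anchored proteins (purple). Among the tested pathway genes filled points passed the limma threshold, and all filled points outside the transamidase lie to the right of 0. Of these, twit, dlp and Alp4 reached the floor only with the ISWI arrays, where they are higher, and the lists were chosen with earlier results known. Nothing is read from the shared direction.

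Steps after the transamidase were followed through remodelling and export genes. Of 9 tested genes for GPI remodelling and for p24 proteins, the cargo receptors that carry GPI-anchored proteins out of the ER, 4 rose and 0 fell, with a median difference of 0.18. This share of 44.4% lies near the 41.1% of all tested genes. The 4 were all p24 genes, CHOp24 by 0.27 (limma adjusted p = 0.00308), loj by 0.23, eca by 0.21 and bai by 0.14. The remodelling genes PGAP1 (0.25), PGAP2 (0.08), PGAP3 (-0.01) and PGAP5 (0.18) did not pass, nor did the p24 gene opm (-0.22). Only 2 genes were higher with centred arrays, and 1 when GST replicate 1 or GST replicate 2 was omitted, while omitting ISWI replicate 1 gave 4 higher and 1 lower.

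The proteins on which the enzyme acts were followed through a list of 23 genes for known GPI-anchored proteins. Of these, 20 had a probe set of 1 symbol, 9 were at or below 4 on every array and 11 were tested. Of the tested genes 8 rose and 0 fell, with a median difference of 0.52. The share that passed was 72.7% against 41.1% of all tested genes. This count and median include twit, dlp and Alp4, which had fewer than 3 GST arrays above 4. They reached the floor only with the ISWI arrays, where they are higher, so nothing is read from the count or the median. The Ly6-family gene twit was at or below 4 on all GST arrays and at 4.82, 4.96 and 4.66 on ISWI arrays, at least 1.76-fold higher. Its p-value is not given, since it entered the test through the ISWI group alone. Tsf2, for a transferrin-like protein of septate junctions, averaged 8.20 ± 0.05 on ISWI arrays and 7.32 ± 0.06 on GST arrays (SD, n = 3 each) and rose by 0.88 (limma adjusted p = 0.000106). Reck, for an inhibitor of matrix metalloproteases, and crok, another Ly6-family gene of septate junctions, rose by 0.78 and 0.47. With the floor required on all 6 arrays, 8 genes were tested and 5 rose, since twit, dlp and Alp4 were not above 4 on every GST array.

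Other ER machines that act on the same precursor proteins were set beside the GPI pathway. Of 15 tested genes for signal peptidase, the translocon and the signal recognition particle (SRP), 5 rose and 2 fell, with a median of 0.09, and the share that passed was 46.7% against 41.1% of all tested genes. Sec63, a translocon-associated chaperone gene, rose by 0.48, the signal peptidase genes twr and Spase12 by 0.30 and 0.26, and Srp19 fell by 0.52. The split was 5 higher and 3 lower when quantile normalization was applied again, and 4 higher and 3 lower with centred arrays. Of 5 oligosaccharyltransferase genes, for the enzyme that adds N-linked glycans, OstDelta and Dad1 rose by 0.19 and 0.14 and Stt3A fell by 0.30. That is a share of 60.0% in a list of only 5 tested genes, and 1 was higher and 1 lower with centred arrays.

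Genes for ER chaperones and ER-associated degradation had a median difference of -0.05, with 3 of 15 higher and 5 lower. The share that passed was 53.3% against 41.1% of all tested genes. The oxidase gene Ero1L fell by 0.48 and the calnexin gene Cnx99A fell by 0.36 (limma adjusted p = 0.0019 and 0.00329). Of the unfolded protein response sensors, PEK rose by 0.25 and Atf6 fell by 0.24 (limma adjusted p = 0.0113 and 0.0161). The sensor gene Ire1 (-0.24) did not pass (limma adjusted p = 0.0753). Omitting GST replicate 1, GST replicate 2 or GST replicate 3 left 1 higher and 2 lower genes each time, and omitting the floor left 1 higher and 4 lower. No test between the gene groups was run.

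**Figure D4:**
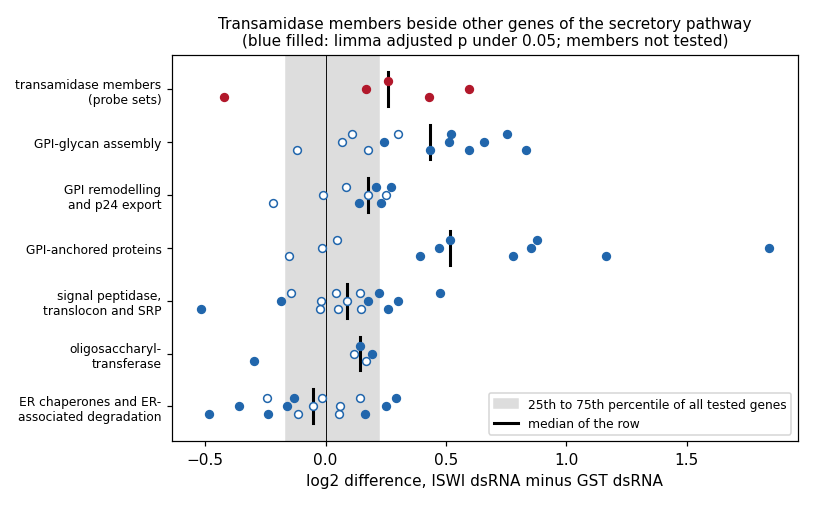
Log2 difference, ISWI dsRNA minus GST dsRNA, for the 5 transamidase probe sets (red) and the tested genes of each list (blue, filled where limma's adjusted p was under 0.05), with the median of each row as a black bar and the 25th to 75th percentile of all tested genes, from -0.17 to 0.22, in grey. Medians are 0.26 for the transamidase probe sets, 0.43 for glycan assembly, 0.52 for GPI-anchored proteins and -0.05 for ER chaperones and degradation. The median for GPI-anchored proteins includes twit, dlp and Alp4, which reached the floor only with the ISWI arrays, so nothing is read from it. The transamidase median is the value of the higher PIG-S probe set, while the lists use only the brightest tested probe set of each gene.

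The transamidase genes lie apart in the genome, PIG-K, PIG-T and GAA1 on X, PIG-U on 2L and PIG-S on 3R. The protein-coding genes next to or overlapping the 4 chosen genes in Release 6 were taken by position, after the members' values were seen. Of 11 such genes 9 had a probe set of 1 symbol and 7 were tested, of which 0 rose and 2 fell in limma's test. Of all tested genes 23.4% rose and 17.6% fell, so nothing is read from so small a count. Both genes that fell stand beside PIG-U. The gene mRpL51, for a mitochondrial ribosomal protein, overlaps PIG-U and measured 9.48 on average on ISWI arrays and 9.80 on GST arrays, a fall of 0.32 (limma adjusted p = 0.00416). CG13097, adjacent to PIG-U, fell by 0.41 (limma adjusted p = 0.00217). Uba4, the adjacent gene on the remaining side, had no probe set of 1 symbol. The gene lawc, beside PIG-T, was 0.40 lower and CG10555, on its other side, 0.03 higher, and neither passed (limma adjusted p = 0.0716 and 0.844). Hr4 overlaps PIG-K and was at or below 4 on every array on its 3 probe sets.

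Many genes had a pattern over the 6 arrays like that of a transamidase gene. Likeness was measured as the root mean square distance between the log2 values of the 6 arrays after each probe set was centred on its own mean. PIG-T came closest to CG15812, CG8306 and aft, at 0.03 each, with differences of 0.58, 0.61 and 0.60 between ISWI and GST arrays. PIG-U was nearest to colt, for a mitochondrial carnitine carrier, Svip and the complex I subunit gene ND-39, at 0.03 each. Closest to PIG-K were the fatty acid elongation gene Hacd1, CG17660 and the chromatin gene Caf1-55, at 0.02, 0.03 and 0.03. The brighter PIG-S probe set had pns, RanBPM and CG42394 nearest, at 0.03 each. Within a distance of 0.1 lay 168 of the other tested genes for PIG-T, 404 for PIG-U, 739 for PIG-S and 1255 for PIG-K, so a near neighbour by this measure is common, most of all for the smaller differences.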

How the data were processed

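The members and gene lists were chosen with earlier results of these data known. The value table holds log2 values per probe set, deposited by the authors. The submitters' processing notes name GCRMA, which in general corrects background, normalizes arrays by quantiles and summarises probes. Its version and the array's scanner are not given in the sources used here. Such processing removes a global shift of RNA content and holds undetected transcripts at a low level.

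Of 18952 probe sets 183 controls were left out. Platform annotation gave 1 symbol for 13646, several for 402 and none for 4721, and 13543 of the first matched a gene table of Release 6, used for names and gene order. Probe sets above 4 on at least 3 of 6 arrays (7390) were tested in R 4.3.3 by limma 3.58.1 (linear model and trended eBayes), two-sided, Benjamini-Hochberg adjusted over all 7390. Members got no p-value. The brightest tested probe set stood for its gene. "At least" folds are against the level of 4. Named were the members, Iswi, GAA1, every tested glycan assembly gene, up to 4 passing genes per other list by smallest adjusted p, and the 3 nearest patterns per member. The adjacent genes, opm, dlp, Alp4, Ire1, the PGAP genes, the passing haemocyte markers and the values of elav and brp were added after values were seen. The code was tested on simulated data. Whether same-numbered arrays were paired could not be told from their values, and the labels do not say. Precision is limited by the number of arrays. The p-values weigh each difference against the spread between the 3 cultures of each group, which eBayes moderates over all tested probe sets.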

Additional observations from a re-analysis of the deposited data

How the results depend on the processing

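Alternatives were different floors on dim signals, centred arrays, quantile normalization applied again, array weights, eBayes without trend or made robust, a replicate block, an adjusted p of 0.01 and leaving out each array. The members' median difference of 0.26 was 0.22 with quantile normalization applied again, 0.23 with centred arrays, and 0.22 to 0.30 without single arrays. In each of these settings the median was the value of the higher PIG-S probe set, so the range is that probe set's own. Each member's difference moved by less than its SD pooled over both groups in these settings. With 3 arrays per group, leaving out 1 array cannot move it further than that. Floors, eBayes options, the adjusted p and the replicate block do not change it at all. Only centred arrays, repeated quantile normalization and array weights could have moved it more. The direction was fixed in part by how the members were chosen. At an adjusted p of 0.01 the calls numbered 1749 for all probe sets (2974 at 0.05), 5 for glycan assembly, 1 for remodelling and export, and 2 for ER chaperones and degradation. Without the floor they were 5 for glycan assembly and 5 for ER chaperones and degradation, where more probe sets were tested. With the floor required on all 6 arrays 5 GPI-anchored protein genes passed of 8 tested. With centred arrays 2 remodelling and export genes passed, and the cause was not tested. Leaving out 1 array at a time gave 2100 to 3023 probe sets, 5 to 8 glycan assembly genes, 1 to 5 remodelling and export genes and 3 to 11 ER chaperone and degradation genes, with fewer samples in each fit. GAA1, also picked with earlier results of these data known, passed in all 17 settings, with limma adjusted p between 0.00117 and 0.0109.

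Correlations of same-numbered arrays' deviations from their group means were -0.18, 0.12 and 0.06 over 7390 probe sets. Those of differently numbered arrays reached from -0.24 to 0.14. With 3 arrays per group these values cannot tell whether the numbers pair the samples, and the labels do not say. With the replicate block 2808 probe sets passed. The members' median difference stayed 0.26, which a block with 1 array per group and number cannot change. The lists gave 8 glycan assembly, 1 GAA1, 3 remodelling and export and 8 GPI-anchored protein genes. They also gave 7 signal peptidase, translocon and SRP, 2 oligosaccharyltransferase and 7 ER chaperone and degradation genes. Dim signals limit what can be said of twit, dlp and Alp4 and of the 9 GPI-anchored protein genes at or below 4.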
